A study of Mus musculus with 6 samples.

Results

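The microRNAs described here lie inside protein-coding genes: miR-335 in Mest, miR-218 in Slit2 and Slit3, miR-140 in Wwp2 and miR-204 in Trpm3. They were taken by name from a table of mature mouse microRNAs and comprise 8 strands of 4 hairpin families, out of 1915 mouse names, of which 919 had at least 1 count. The question was how far the change of each between oviduct and tumor lay in the total output of the hairpin, and how far in the ratio of its arms. Of the 8 strands, 5 passed the low-count filter, and both miR-218 3p strands and miR-140-5p did not. The other strand of miR-204, miR-204-3p, is not among the 8 but was used for the totals and ratios.

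Small RNA was counted in 3 mouse oviducts and 3 primary tumors, which the sample descriptions call ADT tumors and which are also labelled as oviduct tissue. The oviducts had the genotype Dicer1+/D1693N and the tumors Dicer1ko/D1693N, so every sample carried the D1693N allele and the tumors had no normal allele beside it. No treatment was given, and the sources used here do not give the animals' age, the driver of the knocked-out allele, or whether each sample is a separate animal. Tissue state, genotype and a tag in the column names changed together and cannot be told apart. Each oviduct library held 297039 to 580390 counts on mouse names and each tumor library 154002 to 272167. Levels are CPM, the count scaled by library size, after trimmed mean of M-values (TMM) scaling. A floor of 3 counts corresponds to between 5.45 and 11.8 CPM in an oviduct library and between 12.8 and 15.0 CPM in a tumor library. In the oviducts the 6 markers of multiciliated cells and the 5 of epithelium had summed levels of at least 14806 and 6913 CPM.

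A microRNA inside a protein-coding gene is often transcribed with that gene and cut out of an intron as a hairpin. Dicer then removes the loop, with its RNase IIIa domain cutting the 3p side and its RNase IIIb domain, which D1693N alters, cutting the 5p side. The level of a mature strand thus depends both on how much hairpin is made and on which strand is released and kept. Mest is an imprinted gene expressed from the paternal allele, Slit2 and Slit3 encode secreted ligands of Robo receptors, Wwp2 encodes a ubiquitin ligase, and Trpm3 encodes a cation channel. Of these microRNAs, miR-140 is known from cartilage and miR-204 from retinal pigment epithelium.

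All 5 hairpin genes lay on the same strand as their host, and no annotated coding transcript had an exon over any of them (GENCODE M21, GRCm38). Mir335 is at chr6:30741299-30741396 in an intron of Mest. Mir218-1 is at chr5:48223942-48224051 in an intron of Slit2, and Mir218-2 at chr11:35616816-35616925 in an intron of Slit3. Mir140 is at chr8:107551244-107551313 in Wwp2, intronic in the 3 coding transcripts that span it and within 1 transcript annotated as a retained intron. Mir204 is at chr19:22750605-22750672 in an intron of Trpm3.

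Mature sequences were found in RefSeq (GRCm38.p6) for 7 of the 8 strands, all but miR-140-5p. They are shown, with miR-204-3p, because the seed (bases 2 to 8, in capitals) is the part that pairs with targets and differs between the arms of a hairpin.
mmu-miR-335-5p: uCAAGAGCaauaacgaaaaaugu
mmu-miR-335-3p: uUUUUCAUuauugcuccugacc
mmu-miR-218-5p: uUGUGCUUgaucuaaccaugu
mmu-miR-218-1-3p: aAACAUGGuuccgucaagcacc
mmu-miR-218-2-3p: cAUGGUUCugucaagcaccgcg
mmu-miR-140-3p: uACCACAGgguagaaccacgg
mmu-miR-204-5p: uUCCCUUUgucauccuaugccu
mmu-miR-204-3p: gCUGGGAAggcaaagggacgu
No seed was shared among these strands. The 5p strand of miR-218 is the same from both genes, so its counts cannot be assigned to Slit2 or Slit3, while the 3p strands differ. Aligned without gaps, the 3p strands overlap over 19 bases with 1 mismatch, C12U (position counted from the 5′ end of miR-218-1-3p, whose base is given first), and miR-218-2-3p starts 3 bases later, which gives them different seeds. How the counting treated reads with a mismatch is not given in the sources used here. Of the 7 matched strands, 5 begin with U, against 40.9% of the 1679 mature sequences in the RefSeq table. The seed of miR-204-5p is shared with miR-211-5p, encoded in the related gene Trpm1, which had 0 counts in all 6 libraries.

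The hairpins of miR-335 and miR-218 are printed because both of their arms were counted and the ratio between them fell. Capitals mark the mature strands, the 5p strand first, and the loop lies between them.
Mir335: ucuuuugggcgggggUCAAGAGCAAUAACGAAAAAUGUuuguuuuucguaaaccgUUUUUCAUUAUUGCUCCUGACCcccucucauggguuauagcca
Mir218-1: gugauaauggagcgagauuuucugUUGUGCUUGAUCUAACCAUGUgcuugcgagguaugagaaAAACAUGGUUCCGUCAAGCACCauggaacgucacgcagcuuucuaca
Mir218-2: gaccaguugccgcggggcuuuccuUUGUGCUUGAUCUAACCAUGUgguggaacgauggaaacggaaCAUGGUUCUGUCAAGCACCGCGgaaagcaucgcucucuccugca

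The 4 hairpins differed in both measures. Output, the sum of the 5p and 3p counts, rose for miR-335, fell for miR-218 and miR-204 and was not called for miR-140 (edgeR, adjusted p under 0.05). Over all hairpins tested, 22.4% rose and 17.5% fell. The 5p:3p ratio was called as fallen for miR-335, miR-218 and miR-204 and was not called for miR-140 (limma), where 47.2% of all hairpins tested fell and 4.23% rose. The ratio of miR-204, whose 3p strand was hardly counted, was set mainly by its 5p strand and the pseudocount of 0.5 added to each arm. Of 142 hairpins, 67 were called as fallen with this pseudocount, 49 with 0.1 and 74 with 5. A called fall of the ratio was thus common in these tumors, and the output and the ratio are given separately for each hairpin.

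**Figure D1:**
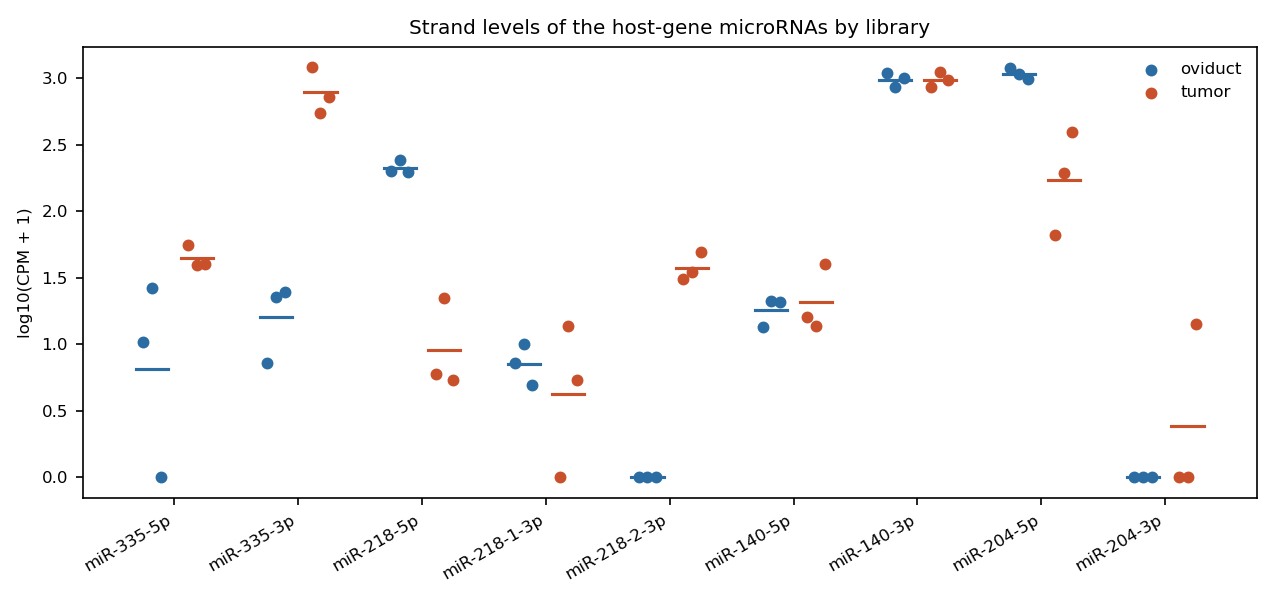
Level of each strand in each library as log10(CPM + 1); points are libraries and bars are group means of the plotted values, oviducts in blue and tumors in orange. The tumors lie above the oviducts for both miR-335 strands and miR-218-2-3p and below them for miR-218-5p and miR-204-5p, while the groups overlap for miR-140-3p.

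The miR-335 hairpin was barely counted in the oviducts and well counted in every tumor. Its total was 5, 26 and 6 counts in oviducts 1, 2 and 3, or 14.8, 44.8 and 23.5 CPM, and 252, 137 and 175 counts in tumors 1, 2 and 3, or 1389, 590 and 770 CPM. Every tumor was above every oviduct. The order among the tumors depended on the scaling, as the TMM factors of the hairpin totals were 0.666, 1.32 and 1.48 in tumors 1, 2 and 3. The groups did not overlap for 55.7% of hairpins tested. Output rose 31.2-fold (log2 4.96, SE 0.54, edgeR adjusted p = 0.000558, n = 3 each), the 8th largest rise among 183 hairpins tested. The median log2 change of all those hairpins was 0.20.

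Nearly all of this gain was in the 3p strand. mmu-miR-335-3p had 2, 12 and 6 counts in the oviduct libraries and 241, 128 and 166 in the tumor libraries. Its level went from 17.2 ± 9.57 to 828 ± 342 CPM (SD, n = 3 each). Among all strands tested 26.9% rose, and among the 3p strands 41.8%. mmu-miR-335-5p had 3, 14 and 0 counts in the oviduct libraries and 11, 9 and 9 in the tumor libraries, or 11.6 ± 12.9 and 44.4 ± 9.38 CPM. The tumor levels of the 5p strand lay above all oviduct levels, as the groups did without overlap for 60.4% of strands tested, but the difference was not called (log2 1.71 with SE 0.72, adjusted p = 0.0703 by edgeR). Leaving out oviduct 2 gave a call (log2 2.93, adjusted p = 0.0364), and its log2 value was 0.94 without oviduct 3.

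The 5p strand of miR-335 was thus not among the 48.4% of tested 5p strands that fell. Its share of the hairpin was 60.0% (95% exact interval 14.7 to 94.7), 53.8% (33.4 to 73.4) and 0% (0 to 45.9) in oviducts 1, 2 and 3. It was 4.37% (2.20 to 7.68), 6.57% (3.05 to 12.1) and 5.14% (2.38 to 9.54) in tumors 1, 2 and 3. The tumors were close together, while the oviduct shares rested on at most 26 counts each, and oviduct 3 had no 5p count. Pooled, the share was 45.9% of 37 oviduct counts and 5.14% of 564 tumor counts. The change of the log2 ratio was -3.09 (SE 1.00, adjusted p = 0.0256 by limma). That call was lost without oviduct 1 (-2.35, adjusted p = 0.103), oviduct 2 (-2.49, adjusted p = 0.114) or tumor 3 (-3.07, adjusted p = 0.0554), and without oviduct 3 the change was -4.44.

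**Figure D2:**
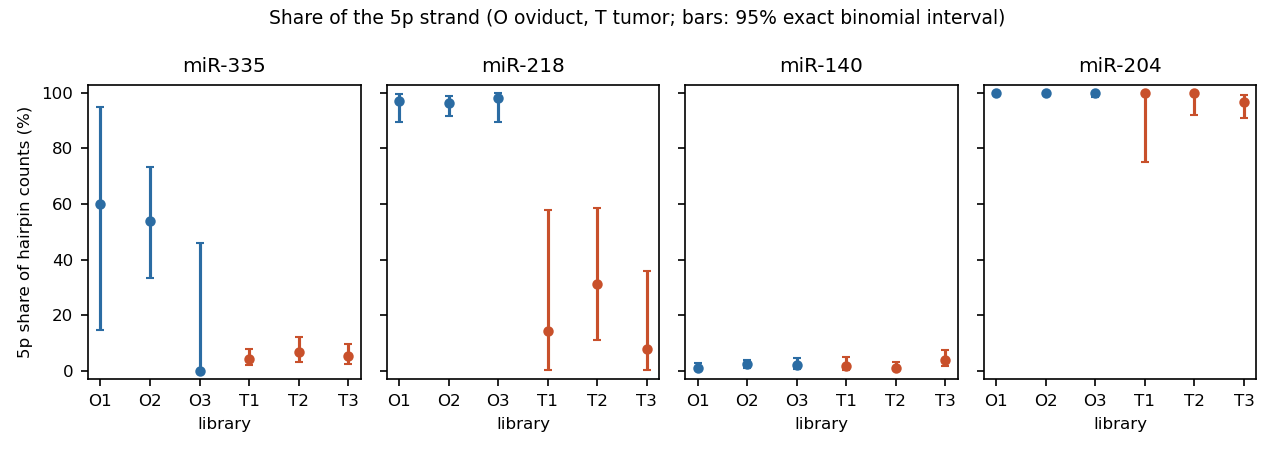
Share of the 5p strand among the counts of each hairpin in each library (O oviduct, T tumor), with exact 95% binomial intervals, which cover counting error only. The 5p share of miR-218 lies above 96% in the oviducts and at or below 31.2% in the tumors, that of miR-140 stays below 4% in all 6 libraries, and the oviduct intervals of miR-335 are wide.

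For miR-218 the leading oviduct strand, 5p, fell to a few counts per tumor, and the hairpin as a whole fell less. mmu-miR-218-5p had 64, 133 and 50 counts in the oviduct libraries and 1, 5 and 1 in the tumor libraries, or 199, 242 and 197 CPM and 5.01, 21.4 and 4.38 CPM. The groups did not overlap, as for 60.4% of strands tested, and only tumor 2 was above the level of 3 counts in its library. The 5p strand fell 19.6-fold (log2 -4.29, SE 0.69, edgeR adjusted p = 0.000674), and without tumor 2 its log2 change was -5.35. Among all strands tested 25.6% fell, and among the 5p strands 48.4%. Output went from 211 ± 23.2 to 54.9 ± 15.3 CPM (n = 3 each), 3.80-fold lower (log2 -1.93 with SE 0.45, adjusted p = 0.0109 by edgeR). This call was lost with library totals alone (log2 -1.57, adjusted p = 0.077) and without oviduct 2 (log2 -1.99, adjusted p = 0.0507).

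The rest of the output was in the 3p strands. Together they had 8 counts over the oviducts and 29 over the tumors, or 7.10 and 43.8 CPM when pooled, a ratio of 6.17 (exact 95% interval 2.75 to 15.6, counting error only). The 5p share was 97.0% (89.5 to 99.6), 96.4% (91.7 to 98.8) and 98.0% (89.6 to 99.95) in the oviducts. It was 14.3% (0.361 to 57.9), 31.2% (11.0 to 58.7) and 7.69% (0.195 to 36.0) in tumors 1, 2 and 3, which had only 7, 16 and 13 counts on the hairpin. The change of the log2 ratio was -6.87 (SE 0.66, adjusted p = 2.65e-05 by limma), the third most negative of 142 hairpins, and ranged from -7.38 to -6.38 when each library was left out. With a pseudocount of 5 it was -4.45, still called. The ratios of the groups did not overlap, as for 56.3% of hairpins tested.

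The 3p counts of miR-218 were assigned mainly to different copies in the 2 groups. mmu-miR-218-2-3p, whose hairpin lies in Slit3, had 0 counts in all 3 oviducts and 6, 8 and 11 in the tumors. Its pooled level of 37.8 CPM in the tumors was 14.2 times the level of a floor of 3 counts over the 3 oviducts. This value leaves out the counting error of the tumor counts. mmu-miR-218-1-3p, whose hairpin lies in Slit2, had 2, 5 and 1 counts in the oviduct libraries and 0, 3 and 1 in the tumor libraries, a pooled ratio of 0.851 (exact 95% interval 0.188 to 3.18). The Slit2 copy thus held 8 of 8 of the 3p counts in the oviducts (63.1 to 100%) and 4 of 29 in the tumors (13.8%, 3.89 to 31.7%). In single libraries its share was 100% in each oviduct and 0%, 27.3% and 8.33% in the tumors (two-sided exact permutation p = 0.1, the smallest that 3 against 3 allows). This comparison of the copies was made after the counts were seen. Both 3p strands failed the low-count filter and so were not tested across all strands at that filter.

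For miR-140 neither measure was called, as for 38% of the 142 hairpins tested for both. mmu-miR-140-3p had 352, 474 and 255 counts in the oviduct libraries and 172, 261 and 221 in the tumor libraries, or 1093, 862 and 1004 CPM and 863, 1116 and 968 CPM. The groups overlapped throughout. The log2 change was -0.01 (SE 0.29, edgeR adjusted p = 0.995) for the 3p strand and 0.10 (SE 0.24, adjusted p = 0.737) for the output. Both strand and output were called lower, at log2 -1.03, when TMM factors came from 3p names alone (adjusted p = 0.0204 and 0.0208), a scaling that moved the median of all hairpins to -0.92.

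miR-140 is a hairpin whose 3p strand already led in the oviducts. mmu-miR-140-5p had 4, 11 and 5 counts there and 3, 3 and 9 in the tumors, a pooled ratio of 1.28 after scaling (exact 95% interval 0.608 to 2.62). Its share of the hairpin was 1.77% ± 0.587 among oviducts and 2.25% ± 1.46 among tumors (SD, n = 3 each). The highest share was the 3.91% of tumor 3 (1.81 to 7.30). The change of the log2 ratio was 0.27 (SE 0.65, adjusted p = 0.779 by limma). The ratio fell for 23.9% of the 67 hairpins that were led by their 3p strand in the oviducts, against 68.9% of the 74 led by their 5p strand. The oviduct counts that set the leading strand also enter the ratio, so this contrast cannot show an effect of the leading strand.

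miR-204 fell on its 5p strand, which made up almost all of its counts in both groups. mmu-miR-204-5p had 385, 591 and 253 counts in the oviduct libraries and 13, 45 and 90 in the tumor libraries, or 1196, 1074 and 996 CPM and 65.2, 192 and 394 CPM. The oviducts were close together, and the tumors were all lower but spread widely, with tumor 1 lowest and tumor 3 highest. Groups did not overlap for 60.4% of strands tested. The 5p strand fell 4.98-fold (log2 -2.32, SE 0.55, edgeR adjusted p = 0.00618), where 48.4% of tested 5p strands fell. Output fell 4.63-fold (log2 -2.21, SE 0.54, edgeR adjusted p = 0.0143), from 1050 ± 79.0 to 225 ± 171 CPM (n = 3 each). The call on output was lost without oviduct 1 (adjusted p = 0.053). Leaving out tumor 3 gave larger falls, with log2 values of -3.21 for the 5p strand and -3.03 for the output.

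The arm ratio of miR-204 was called as fallen although its 3p strand was hardly counted. miR-204-3p had 0 counts in 5 libraries and 3 in tumor 3. In the oviducts 0 of 1229 counts were 3p, which allows a share of up to 0.244% by the floor of 3 counts. The log2 change of -4.28 (SE 0.69, limma adjusted p = 0.000503) was therefore set mainly by the pseudocount of 0.5 and the fall of the 5p strand, and it moved between -5.01 and -3.38 with pseudocounts of 0.1 and 5. Without tumor 3, when no 3p count is left, it was still called (-3.96, adjusted p = 0.00251). The 5p share was 100% in tumors 1 and 2 (lower bounds of the exact 95% interval 75.3% and 92.1%) and 96.8% in tumor 3 (90.9 to 99.3).

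**Figure D3:**
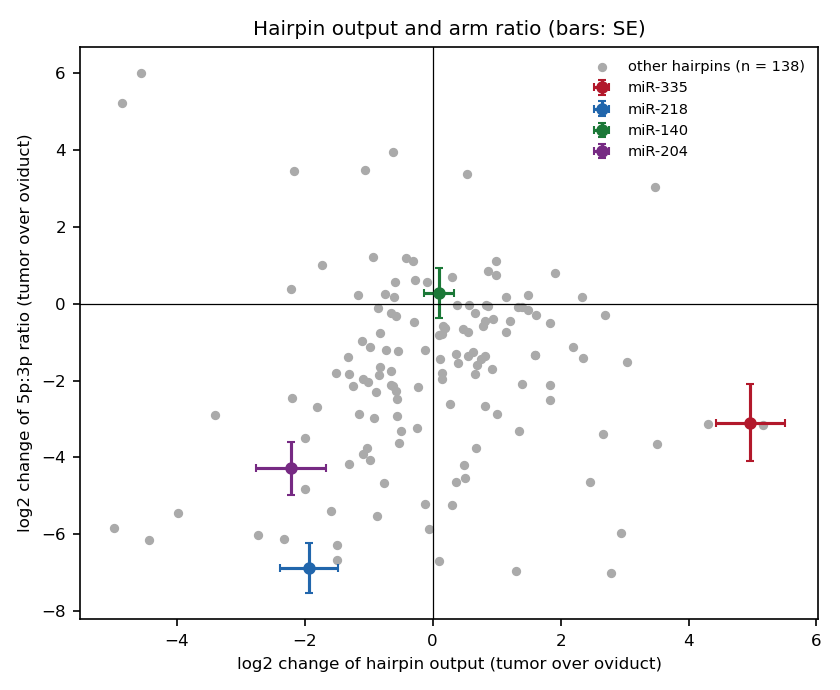
Change of hairpin output (horizontal) against change of the 5p:3p ratio (vertical), both as log2 of tumor over oviduct, for 142 hairpins; bars on the 4 hairpins are standard errors. miR-335 lies far to the right, miR-218 and miR-204 to the lower left and miR-140 beside the origin.

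The 3 hairpins with a called output differed in how output and ratio combined. For miR-335 the output rose and the ratio fell, a pairing called for 9.15% of hairpins. For miR-218 and miR-204 both were called as fallen, as for 16.2%, with the ratio of miR-204 set by the pseudocount and the 5p strand as above. The log2 change of the leading oviduct strand was -4.29 for miR-218-5p beside an output change of -1.93, and -2.32 for miR-204-5p beside an output change of -2.21. These values are on the log2 scale of tumor over oviduct, with TMM factors computed separately for strands and hairpins.

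Ratios of hairpin totals within a library need no scaling, and 6 pairs were compared. In the oviducts miR-335 had fewer counts than each of the others, with a mean log2 ratio of -2.99 to miR-218, -5.18 to miR-140 and -5.30 to miR-204. In the tumors these were 3.94, -0.27 and 2.24. miR-335 thus gained 6.93, 4.91 and 7.54 log2 units on them. miR-140 gained 2.63 on miR-204, and miR-218 changed by -2.02 against miR-140. In these 5 pairs the groups did not overlap (two-sided exact permutation p = 0.1 each, the smallest possible, adjusted p = 0.12 over the 6 pairs), so none could pass the threshold. For single hairpin outputs the groups did not overlap for 55.7% of hairpins tested. The share over all pairs of hairpins was not computed. The ratio of miR-218 to miR-204 went from -2.31 ± 0.22 to -1.70 ± 0.99 (n = 3 each) with overlap (exact p = 0.4, adjusted p = 0.4).

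**Figure D4:**
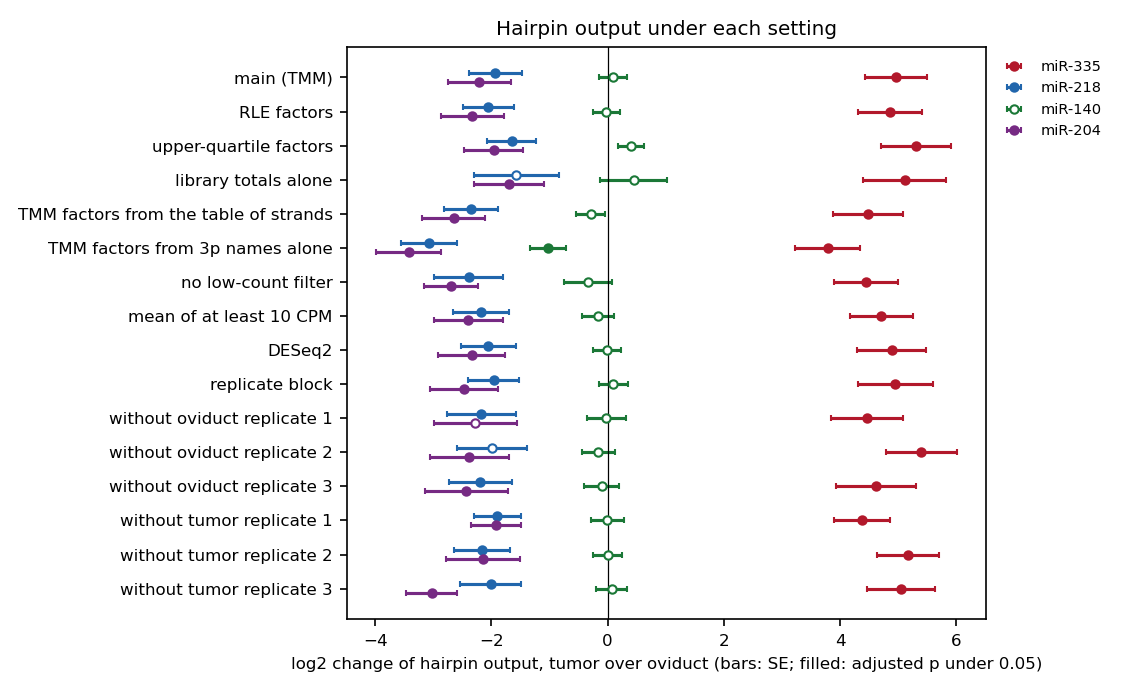
Log2 change of hairpin output, tumor over oviduct, for the 4 hairpins under the main and 15 other settings; bars are standard errors and filled points have an adjusted p under 0.05. miR-335 stays between 3.79 and 5.40, miR-218 and miR-204 stay below 0 throughout, and miR-140 lies on either side of 0.

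The scaling moved the level of all 4 changes. The median log2 change of all hairpins tested was 0.20 with TMM, 0.63 with library totals alone and -0.92 with TMM factors from 3p names alone. Calls over all hairpins were 41 higher and 32 lower in the first, 48 and 15 in the second and 22 and 79 in the third, and 60 and 25 with upper-quartile factors and 32 and 48 with TMM factors from the table of strands. With the 3p factors the output of miR-335 changed by 3.79, miR-218 by -3.07 and miR-204 by -3.42 on the log2 scale, and all 3 were called.

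Hairpins with the most similar course over the 6 libraries were found by the root mean square difference of log2 (CPM + 1), each centred on its oviduct mean. Nearest to miR-140 was miR-151 (difference 0.11), encoded in Ptk2, with an output of 3984 ± 446 and 4330 ± 222 CPM (n = 3 each), followed by miR-339 (0.17) and miR-574 (0.26). Nearest to miR-218 were miR-222 (0.21), miR-28c (0.23) and miR-497a (0.24). miR-204 had no hairpin as close, with miR-222 at 0.61, miR-351 at 0.63 and miR-28c at 0.67. For miR-335 the nearest were miR-5100 (0.74), miR-3473b (0.82) and miR-130b (0.87), the last going from 17.1 ± 9.10 to 364 ± 252 CPM. The oviduct means of miR-5100 and miR-3473b were only 7.30 and 4.43 CPM. In the hairpin totals 3 counts correspond to between 5.17 and 11.8 CPM in an oviduct library.

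Other microRNAs inside protein-coding genes were taken from a list of 66 strands of 39 hairpins, for 65 of which the annotation gave the listed host on the same strand. Of 40 strands tested, 12 rose, 9 fell and 19 were not called, with a median log2 change of 0.23 beside 0.20 for all 227 strands tested. Of 19 tested 5p strands in the list 1 rose and 8 fell, and of 21 tested 3p strands 11 rose and 1 fell. Over all strands tested, 46 of 95 5p strands fell (48.4%) and 46 of 110 3p strands rose (41.8%). Over the list 7 rose without oviduct 3, 2 fell without oviduct 2, 1 fell with library totals alone, and 2 rose with TMM factors from 3p names alone. Of their hairpin outputs 9 of 30 rose and 4 fell, beside 22.4% and 17.5% of all hairpins. The ratio fell in 12 of 28 and rose in 0 (limma), beside 47.2% and 4.23% of all hairpins, with a median of -1.52 beside -1.53 for all hairpins. The most abundant was miR-26a-5p, which fell from 32196 ± 9489 to 10583 ± 1284 CPM (log2 -1.61 with SE 0.31, adjusted p = 0.00162 by edgeR). The annotation gave both Ctdspl, its listed host, and Ctdsp2 for this strand, so its counts are not assigned to either. Next was miR-126a-5p in the endothelial gene Egfl7, which rose (log2 1.04, SE 0.28, adjusted p = 0.011 by edgeR). miR-151-3p in Ptk2 (log2 0.20, SE 0.29) and miR-378a-3p in Ppargc1b (log2 0.00, SE 0.39) were not called.

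Some microRNAs typical of cell types were called between the groups, where 26.9% of all strands tested rose and 25.6% fell. The summed level of 6 multiciliated cell markers was 14806 to 21529 CPM in the oviducts and 420 to 1204 CPM in the tumors, with 3 of 5 tested lower. For 5 epithelial markers it was 6913 to 11920 and 3841 to 6986 CPM (1 of 5 tested lower), and for 2 endothelial markers 7117 to 9508 and 15136 to 20113 CPM (2 of 2 higher). For 5 markers of smooth muscle and fibroblasts it was 492653 to 559536 and 138161 to 860398 CPM, with 2 higher and 2 lower of 5. For 5 leukocyte markers it was 1087 to 1758 and 740 to 4977 CPM (0 of 5 called by edgeR), and for 3 red blood cell markers 151 to 186 and 163 to 1189 CPM (1 of 1 tested higher). No marker was at 0 in all libraries. In these bulk samples fewer cells of a type and less RNA per cell cannot be told apart, and the part of cell makeup in the changes of miR-335, miR-218 and miR-204 was not tested.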

How the data were processed

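The authors deposited raw counts for each mature microRNA name, as whole numbers without normalization. Per the submitters' processing notes cutadapt was used, and per the file headers the counted files were BAM files made from trimmed reads. For the aligner, counting program, microRNA reference and build, the entry is "not given in the sources used here". The 3 oviducts and 3 tumors analysed here compare with 5 and 4 named in the series text. Groups came from sample titles. The p-values measure only the spread among these libraries, which could be technical.

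Names of other species (67) were left out. Strands, and hairpin totals with copy numbers pooled, were tested over the whole table with edgeR 4.0.16 in R 4.3.3 (filterByExpr with a minimum count of 10, TMM, robust quasi-likelihood). The standard error is the log2 change divided by the square root of F. The filter left 227 strands and 183 hairpins. The ratio log2((5p + 0.5)/(3p + 0.5)) was tested with limma 3.58.1 for 142 hairpins with a mean of at least 20 counts. Adjusted p-values are Benjamini-Hochberg values, two-sided, with a threshold of 0.05. Intervals are Clopper-Pearson 95% intervals, or derived from them for ratios of pooled counts, and they and the floor of 3 counts cover counting error only. Alternatives covered scaling, filters, pseudocounts, DESeq2 1.42.0, an edgeR interaction, a replicate block and leaving out each library. The functions were tested on simulated data. Named microRNAs were all 8 strands and miR-204-3p, the 4 most abundant tested members of the list, and the 3 nearest hairpins of each. Members and lists were chosen with earlier results of these data known. Sequences are from RefSeq.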

Additional observations from a re-analysis of the deposited data

Results flagged for a closer look

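Names of other species, which enter no comparison here, carried 9 counts in the tumors and 1 in the oviducts. By library there were 3, 0 and 6 in tumors 1, 2 and 3 and 0, 1 and 0 in oviducts 1, 2 and 3. These few counts were flagged as unused data, and their difference was not tested. No group was large enough for a check of single outlying samples.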

How the results depend on the processing

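Of 335 recomputed values, 295 kept their direction and their side of the threshold or, for counts of calls, stayed within 1.5 times. The values of the 6 pairs are among the 295 but could not cross the threshold, since their smallest possible p is 0.1. A drop of the called falls in arm ratio from 3 to 2, as with a pseudocount of 0.1, also counted as kept. Of the 8 strands 1 was called higher, which became 2 with library totals alone (adding miR-335-5p), and without a low-count filter or with a minimum mean of 10 CPM (adding miR-218-2-3p, which has counts in the tumors alone and so could pass only through them). With a library left out it lay between 1 and 3, at 2 without oviduct 1, oviduct 3 or tumor 1 and at 3 without oviduct 2. In each of these cases miR-218-2-3p was added, again able to pass the filter only through the tumors, and without oviduct 2 also miR-335-5p. The 2 lower strands stayed 2 there. Of the 4 hairpin outputs 2 were called lower, or 1 with library totals alone, and 1 to 2 with a library left out, at 1 without oviduct 1 or oviduct 2. The list's 12 higher strands became 2 with TMM factors from 3p names alone and 7 without a low-count filter, and its 9 lower strands became 1 with library totals alone. With a library left out they lay between 7 and 13 and between 2 and 10. The log2 change of miR-140-3p turned to 0.13 with upper-quartile factors and 0.44 with library totals alone. That of miR-140 output turned to -0.02 with RLE factors, -1.03 with TMM factors from 3p names alone, -0.29 with those from the table of strands, -0.33 without a filter, -0.16 at a mean of 10 CPM and -0.01 by DESeq2, and lay between -0.16 and 0.07 with a library left out. Its arm ratio lay between -0.19 and 0.65. The cause was not tested. The arm ratio of miR-335 was not called with a pseudocount of 0.1 (log2 -2.43, adjusted p = 0.298), and miR-218 falls below a minimum mean of 50 counts. Same-numbered samples did not deviate together (r = -0.0464, 0.0976 and -0.134), and with the replicate block the outputs changed by 4.95, -1.96, 0.10 and -2.47 for miR-335, miR-218, miR-140 and miR-204, with no call changed among the 8 strands and the 4 outputs and ratios. The list then had 10 higher and 8 lower strands. The pair values kept their direction with both pseudocounts and without each library. Depth limits the oviduct values of miR-335, the tumor values of miR-218 and the minor strands of miR-218, miR-140 and miR-204.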
